A study of Mus musculus with 20 samples.

Results

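The interferon-stimulated genes are 37 mouse genes that cells switch on after interferon binds its receptors. They were chosen by name, with earlier results of these data known. They were followed across the hippocampus of aged and young mice kept in an enriched environment or in standard cages. Of the 37 genes, 36 had 10 or more reads in at least 5 libraries and were measured, out of 16692 genes tested, and the same 36 passed the filter on low counts. Mx1, an interferon-induced GTPase that is disrupted in most laboratory mouse strains, was below this minimum. The 20 libraries were made from hippocampal RNA that was isolated from each male C57BL/6 mouse separately: 24-month-old mice from the enriched environment (24mEE), 24-month-old mice from standard cages (24mSC), 5-month-old mice from the enriched environment (5mEE) and 5-month-old mice from standard cages (5mSC), with 5 libraries in each group. Enriched cages were larger than standard ones and held running wheels and objects to climb and hide in. The paper moved its 24-month enriched mice there late in life, from standard cages, and describes no enriched 5-month mice. No group carried a mutation, transgene or drug treatment. The comparisons asked how age and housing change expression, and whether the effect of enrichment differs between the ages.

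Type I interferons bind the receptor pair Ifnar1 and Ifnar2, whose kinases Jak1 and Tyk2 activate transcription factors. Stat2 and Irf9 are parts of the complex that then binds a short promoter element, the interferon-stimulated response element. Its targets include sensors of foreign RNA, proteins that block viral translation or release, and the ubiquitin-like protein Isg15. In the brain, microglia, astrocytes, endothelial cells and neurons can all respond, and a bulk library cannot tell a change in the number of responding cells from a change in RNA per cell.

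The promoter sequences show a motif that many of the members share and others lack. RefSeq (GRCm38.p6) windows were at hand for 27 of the 37 members, each running from 250 bases before a gene's start to 50 bases after it. The core of the response element, searched as GAAANNGAAA on both strands, was present in 15 of these 27 members (55.6%), against 3.99% of the 27025 genes with a window and 3.44% of all 32851 windows. The interferon-gamma element, searched as TTCNNNGAA, was present in 6 of 27 members (22.2%), against 9.55% of all genes. The motifs can share the letters GAA or TTC where they lie side by side, and a match is a description of the sequence, not a bound site.

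The 4 sequences below are the 250 bases before the start of the members that rose with age in the fit of all 20 libraries, and the capitals mark the core motif read on either strand. They lie at chr19:34583279-34583528 (plus strand) for Ifit3, chr19:34607707-34607956 (plus strand) for Ifit3b, chr2:62646256-62646505 (minus strand) for Ifih1 and chr11:118401960-118402209 (minus strand) for Lgals3bp.
Ifit3: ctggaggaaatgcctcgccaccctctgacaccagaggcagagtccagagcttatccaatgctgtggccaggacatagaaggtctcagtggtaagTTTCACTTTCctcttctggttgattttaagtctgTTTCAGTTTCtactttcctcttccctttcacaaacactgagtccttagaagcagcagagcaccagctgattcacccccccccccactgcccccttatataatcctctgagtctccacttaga
Ifit3b: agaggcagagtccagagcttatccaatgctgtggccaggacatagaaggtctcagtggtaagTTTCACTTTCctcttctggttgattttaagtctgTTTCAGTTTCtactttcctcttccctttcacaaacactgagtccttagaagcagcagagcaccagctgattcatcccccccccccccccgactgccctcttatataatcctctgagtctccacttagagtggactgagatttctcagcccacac
Ifih1: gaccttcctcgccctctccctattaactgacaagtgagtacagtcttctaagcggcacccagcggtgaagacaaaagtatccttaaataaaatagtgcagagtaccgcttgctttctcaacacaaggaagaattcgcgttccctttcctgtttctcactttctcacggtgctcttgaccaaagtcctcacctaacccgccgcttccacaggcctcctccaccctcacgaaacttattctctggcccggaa
Lgals3bp: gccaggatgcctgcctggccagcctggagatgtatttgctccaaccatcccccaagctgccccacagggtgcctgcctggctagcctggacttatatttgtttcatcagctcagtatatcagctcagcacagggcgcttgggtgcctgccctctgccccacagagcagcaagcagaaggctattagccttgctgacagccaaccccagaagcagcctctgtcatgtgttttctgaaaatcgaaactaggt

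In Ifit3 the motif began 156 and 122 bases before the start, and in Ifit3b 188 and 154 bases before it, so that both pairs were spaced by 34 bases. Laid side by side at the first motif with no gap, the 2 upstream windows were identical at 188 of 218 bases (86.2%). The upstream bases of Ifih1 held no match, but its whole window held one, across the start or in the 50 bases after it. The window of Lgals3bp held none. Another 5 members rose with age in 18 libraries, without 5mSC replicates 1 and 3, and of these the windows of Bst2 and Trim30a held the motif and those of Ifit2, Oasl2 and Xaf1 did not.

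Levels differed widely between members. Per kilobase of exon, the median over the 20 libraries, in CPM (reads of a gene scaled to a fixed library total), was highest for Ifi27, a small mitochondrial and nuclear membrane protein, at 21.2. Ifitm3, which blocks virus entry at endosomes, followed at 9.26, Lgals3bp at 5.76, Stat2 at 4.62 and the virion-tethering protein Bst2 at 4.12. Levels were lowest for the nucleic acid sensor Zbp1 (0.0651 CPM per kilobase) and for Ifi44 (0.108). The OAS family members Oas1a (0.224), Oas1b (0.24) and Oas2 (0.274) came next. Only 3 to 20 reads per library were counted for Oas1a, so that a small difference was not detectable for it at this depth.

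The ligands themselves were barely counted. None of 20 interferon genes passed the filter on low counts. Ifnb1 had 0 reads in all libraries, which allows up to 3 reads per library (at most 0.329 CPM, in the shallowest library). The largest count of any ligand was 24 reads, for Ifna14 in 5mSC replicate 3, and that gene had 0 reads in the other 19 libraries. Ifna15 (12 reads), Ifnl2 (8), Ifna4 (7), Ifna5 (5) and Ifnl3 (5) were likewise counted in 5mSC replicate 3 alone, and no other ligand had over 4 reads in a library. The receptors were expressed in every group: Ifnar1 averaged 42.7 ± 1.36 CPM in 24mEE, 42.4 ± 1.86 in 24mSC, 41.4 ± 1.1 in 5mEE and 38.3 ± 3.86 in 5mSC (SD, n = 5 each).

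Some libraries stood apart and bear on every result that uses them. Library totals were 10963348 to 34107138 reads. In 5mSC replicate 3, 26.8% of reads came from the mitochondrial ribosomal RNA genes, against at most 1.82% in the other 19 libraries, and its median correlation with its own group was 0.938. For 5mSC replicate 1 this correlation was 0.986, and it was 0.988 or more in the other 18 libraries. Hippocampal neuron markers (8 genes) summed to 1100 to 1480 CPM in 24mEE and 1040 to 1110 CPM in 24mSC. In 5mEE the sum was 1210 to 1530 CPM, and in 5mSC 865 to 1390 CPM, with the lowest in replicate 3. 5mSC replicate 3 had the highest value of the 20 libraries in 17 of 36 members, against 32.5% of all genes tested. Zbp1 reached 31.8 CPM there and at most 0.767 CPM in the other 19 libraries. Results below are therefore also given for the 18 libraries without 5mSC replicates 1 and 3.

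**Figure D1:**
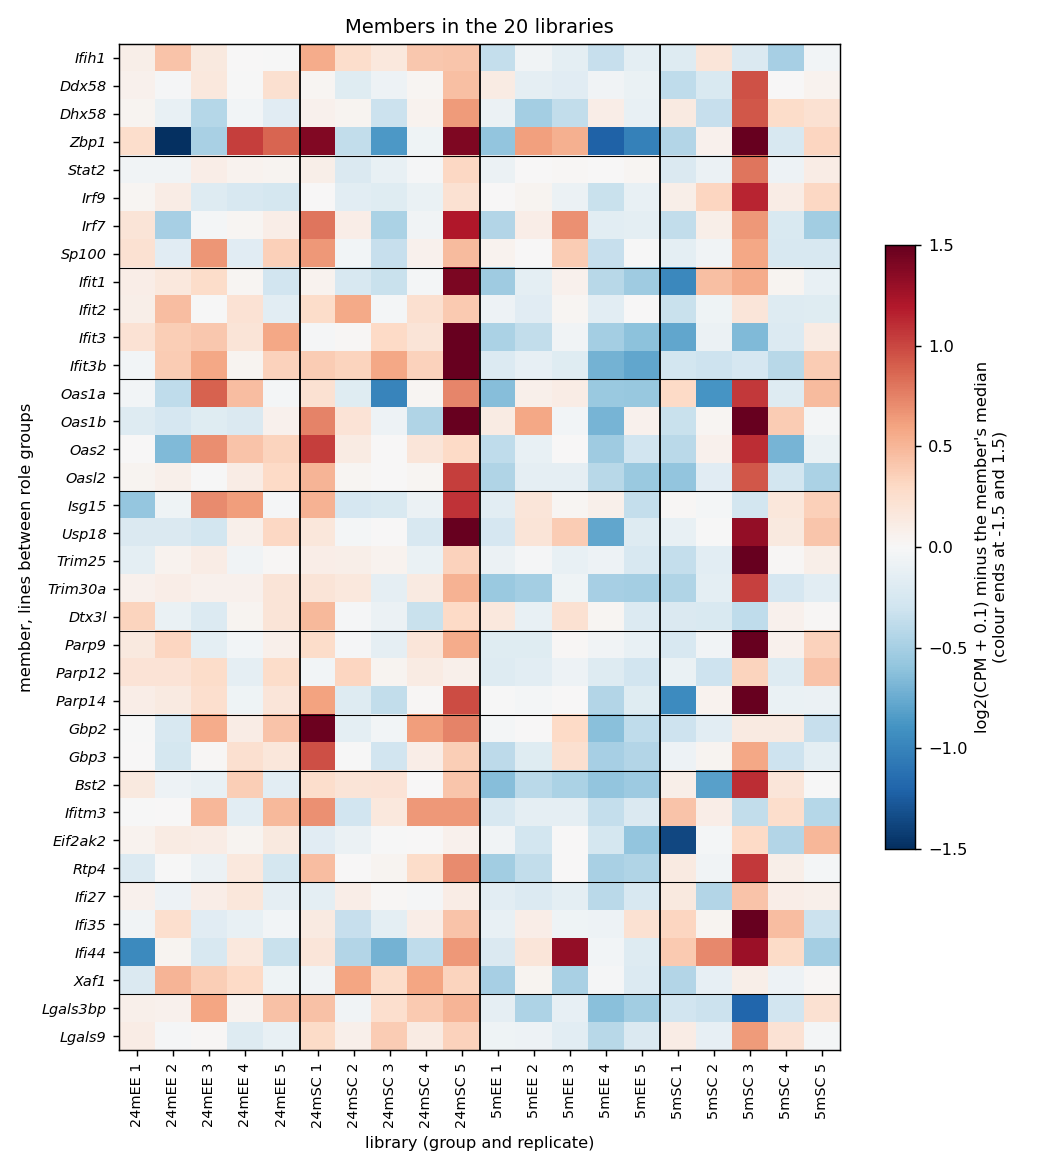
The 36 measured members (rows, grouped by role) in the 20 libraries (columns). Colour gives log2 CPM minus the member's own median over the libraries, red above and blue below, and the columns that stand out are 5mSC 3 and 24mSC 5.

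The mean log2 CPM of the 36 members gives each library one value. It was 1.906, 1.871, 2.046, 2.009 and 2.023 in 24mEE and 2.291, 1.906, 1.808, 1.992 and 2.6 in 24mSC. It was 1.673, 1.833, 1.947, 1.55 and 1.607 in 5mEE and 1.679, 1.822, 2.716, 1.854 and 1.929 in 5mSC. The 24mEE libraries lay close together (mean 1.971 ± 0.077, SD, n = 5), while 24mSC spread widely (2.119 ± 0.324) because replicates 1 and 5 were high. The 5mEE group had the lowest mean (1.722 ± 0.165), and 5mSC had 2.0 ± 0.41 with all libraries and 1.868 ± 0.055 (n = 3) without replicates 1 and 3. The 2 enriched groups overlapped in one library only, 5mEE replicate 3. No test was made on this score, since it is a mean over members that were chosen with earlier results known.

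**Figure D2:**
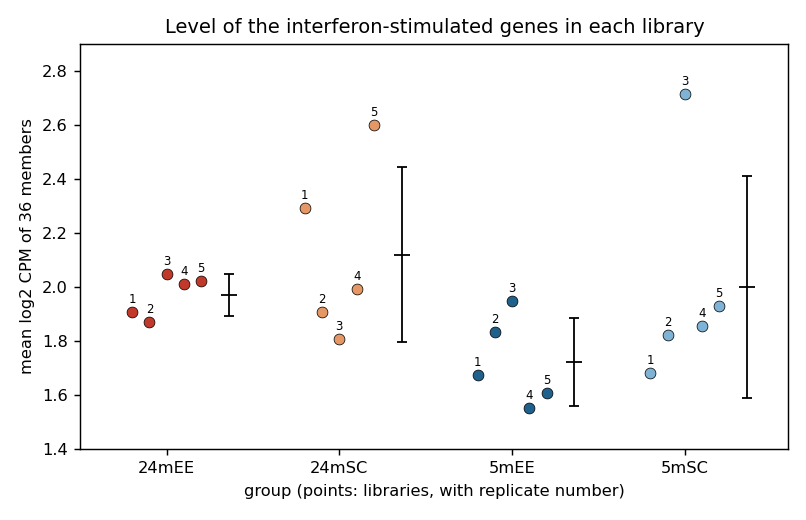
Mean log2 CPM of the 36 measured members in each library, with the replicate number beside each point and the group mean and SD at its right. The 24mEE libraries sit between 1.871 and 2.046, whereas 24mSC 5 (2.6) and 5mSC 3 (2.716) lie above the other libraries.

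Age was compared first over both housings, with 10 libraries on each side. Ifih1, Ifit3, Ifit3b and Lgals3bp rose at 24 months and no member fell (edgeR quasi-likelihood test, Benjamini-Hochberg adjusted p under 0.05 over all genes). That is 4 of 36 members, against 0.755% of all genes called higher. DESeq2 called 6 members higher, against 1.66% of all genes, and limma-voom 9, against 3.47%. At unadjusted p under 0.05, 11 members were higher and 2 lower, with 14.9% of all genes past that p in either direction. The median log2 fold change of the members was 0.205, with 27 of 36 above 0 (75.0%, against 48.0% of all genes). In the 18 libraries 9 of 36 members rose, against 3.1% of all genes, with a median of 0.30 and 33 of 36 above 0.

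Ifih1 encodes MDA5, the cytoplasmic sensor of long double-stranded RNA. It had 4.88, 6.24, 5.08, 4.61 and 4.58 CPM in 24mEE and 6.78, 5.53, 5.13, 6.1 and 6.18 CPM in 24mSC, against 3.56, 4.41, 4.13, 3.58 and 4.14 CPM in 5mEE and 3.99, 5.24, 3.94, 3.23 and 4.48 CPM in 5mSC. All enriched 24-month libraries exceeded all enriched 5-month ones, and in standard cages only 5mSC replicate 2 reached into the range of 24mSC. Its log2 fold change with age was 0.43 ± 0.09 (SE; edgeR adjusted p = 0.0268), a 1.35-fold difference. The other RNA sensors of this family did not pass: log2 fold changes were 0.05 for Ddx58 (RIG-I) and -0.05 for Dhx58 (LGP2).

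The IFIT proteins act against viruses, and some of them bind viral RNA and block translation. Ifit3 had 4.69, 5.25, 5.35, 4.61 and 6.09 CPM in 24mEE and 3.98, 4.08, 4.97, 4.64 and 13.9 CPM in 24mSC, against 2.88, 3.1, 3.88, 2.81 and 2.59 CPM in 5mEE and 2.3, 3.78, 2.52, 3.47 and 4.38 CPM in 5mSC. One library, 24mSC replicate 5, was far above the rest, and 5mSC replicate 5 overlapped the lower 24mSC values. The log2 fold change was 0.85 ± 0.20 (edgeR adjusted p = 0.0397), and 0.59 without 24mSC replicate 5 (adjusted p = 0.0217). The call was lost in 12 of the 20 fits that left out 1 library, with adjusted p up to 0.0781 and log2 fold changes of 0.79 to 0.88 in those 12.

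Its neighbour Ifit3b, a mouse paralog on the same strand of chromosome 19, had 2.29, 3.1, 3.58, 2.44 and 3.02 CPM in 24mEE and 3.11, 3.0, 3.58, 3.02 and 6.9 CPM in 24mSC, against 2.03, 2.16, 2.07, 1.41 and 1.33 CPM in 5mEE and 1.94, 1.89, 1.97, 1.75 and 3.1 CPM in 5mSC. The enriched groups did not overlap, and in standard cages only 5mSC replicate 5 reached the 24-month range. The log2 fold change was 0.78 ± 0.17 (edgeR adjusted p = 0.0293). The transcripts share much of their sequence: 51.24% of the 50-base words of Ifit3 and 45% of those of Ifit3b recur in other genes, so reads cannot be fully assigned between the 2 genes and they are not separate evidence.

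Lgals3bp encodes a secreted glycoprotein that binds galectin-3. It had 17.3, 17.2, 24.8, 17 and 22.3 CPM in 24mEE and 22.3, 15.8, 19.6, 21.5 and 23.4 CPM in 24mSC, against 14.9, 11.9, 15, 10.6 and 11.4 CPM in 5mEE and 13.4, 13.1, 7.12, 13.4 and 19.2 CPM in 5mSC. The lowest value of all was in 5mSC replicate 3 and the one 5-month library within the 24-month range was 5mSC replicate 5. The log2 fold change was 0.61 ± 0.13 (edgeR adjusted p = 0.018), a 1.53-fold difference, and Lgals3bp was called whichever 1 of the 20 libraries was left out.

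**Figure D3:**
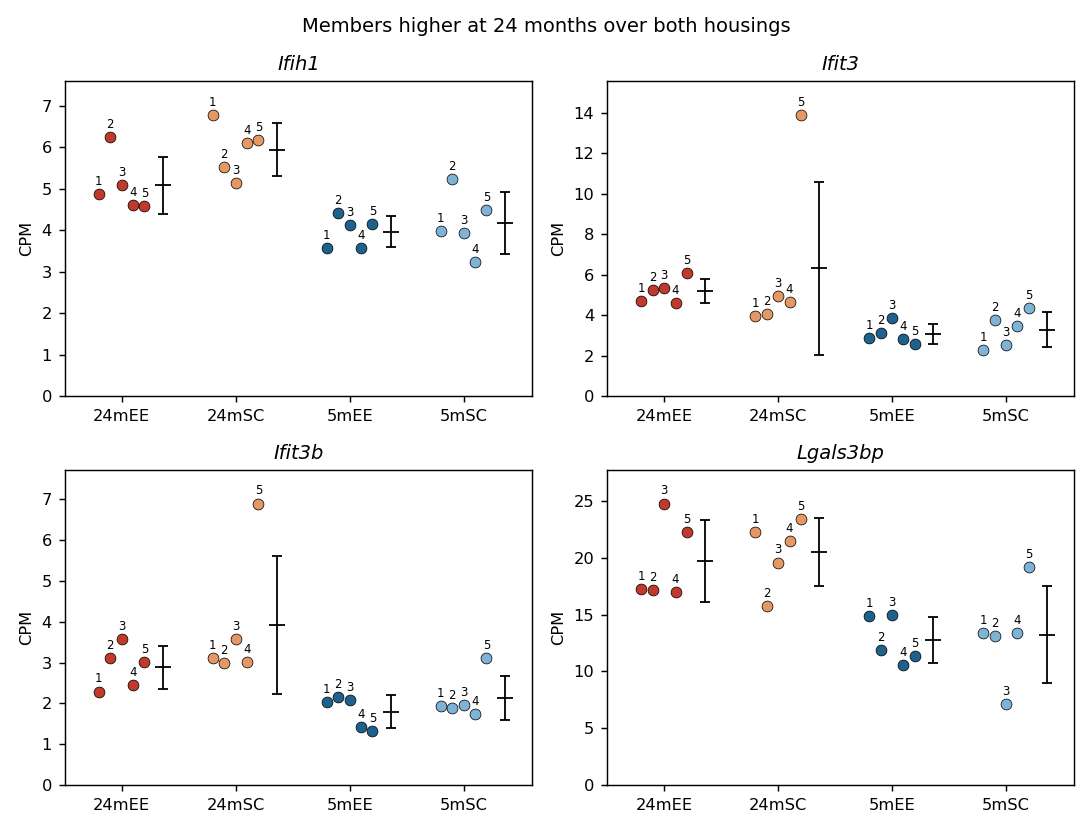
CPM of Ifih1, Ifit3, Ifit3b and Lgals3bp in each library, with replicate numbers and the group mean and SD at the right of each group. In each panel most 24-month libraries lie above the 5-month libraries, and 24mSC 5 stands alone in Ifit3 (13.9) and Ifit3b (6.9).

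The count of 4 depended on single libraries, as did the share of all genes called. It was 9 without 5mSC replicate 3, where 3.07% of all genes were called higher. It was 3 without 5mSC replicate 1, 5mEE replicate 2 or 24mEE replicate 4, against 0.497% to 0.728% of all genes. It was 2 without 5mSC replicate 4, without 5mEE replicates 1 or 5, without 24mEE replicates 3 or 5, or without 24mSC replicate 3. In those fits 0.433% to 0.55% of all genes were called higher. It was 1 (Lgals3bp) without 5mEE replicate 4 or 24mEE replicate 2, against 0.432% and 0.439% of all genes. Without 24mSC replicate 5 the same 4 members rose, against 0.586% of all genes. Without 24mSC replicate 1, where 0.438% of all genes were called higher, Xaf1 was called and Ifih1 was not. Without 24mEE replicate 1, where 0.64% of all genes were called higher, Xaf1 was called and Ifit3 was not. In all, Ifih1 lost its call without 1 library in 4 of 20 fits, Ifit3b in 7 and Lgals3bp in 0. The 5 members added in the 18 libraries were Ifit2 (log2 fold change 0.33, adjusted p = 0.028), Oasl2 (0.58, 0.017), Trim30a (0.45, 0.0074), Bst2 (0.47, 0.0227) and the XIAP-binding protein Xaf1 (0.43, 0.0366). With 24mSC replicate 5 also left out, a choice made after seeing the data, the same 9 members rose in the 17 libraries, against 2.99% of all genes, and the median log2 fold change was 0.20.

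Oasl2, a ubiquitin-like relative of the OAS enzymes, separated the ages most fully. It had 4.03, 4.13, 3.9, 4.21 and 4.81 CPM in 24mEE and 5.61, 3.98, 3.91, 4.0 and 8.1 CPM in 24mSC, against 2.82, 3.55, 3.54, 2.9 and 2.62 CPM in 5mEE and 2.56, 3.47, 7.56, 3.2 and 2.79 CPM in 5mSC. Every 24-month library exceeded every 5-month library other than 5mSC replicate 3. Without 5mSC replicates 1 and 3 it was the only member whose 10 24-month libraries all lay above all 5-month ones, against 0.347% of all genes. With all 20 libraries no member did so, against 0.168% of all genes.

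Age within the enriched environment compares 2 groups in which no library stood apart in mitochondrial ribosomal RNA or in correlation with its group. The median log2 fold change of the members was 0.27, and 31 of 36 were above 0 (86.1%, against 49.3% of all genes). In 9 of 36 members every 24mEE library exceeded every 5mEE library, against 1.63% of all genes: Ifih1, Ifit3, Ifit3b, Oasl2, Trim30a, Bst2, Eif2ak2, Ifi27 and Lgals3bp. No member passed the edgeR test in the fit of 20 libraries, while 0.0839% of all genes were called higher. At unadjusted p under 0.05, 10 members were higher and 0 lower, with 4.61% of all genes past that p in either direction. DESeq2 called 0 members and 0.162% of all genes higher, limma-voom 3 members and 0.665%, and edgeR on only these 2 groups 1 member and 0.237%. In the 18 libraries, where these 2 groups are the same but the shared spread is estimated without 5mSC replicates 1 and 3, 2 members rose, against 0.413% of all genes: Trim30a (log2 fold change 0.53 ± 0.12, adjusted p = 0.0481) and Lgals3bp (0.62 ± 0.14, adjusted p = 0.0493). In the 17 libraries Trim30a and Ifit3 rose, against 0.384% of all genes.

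Trim30a is a mouse TRIM protein. It had 4.88, 4.99, 4.89, 4.87 and 5.36 CPM in 24mEE, against 3.15, 3.24, 4.47, 3.28 and 3.26 CPM in 5mEE. The 24mEE values were nearly level, and 5mEE replicate 3 was the one young library close to them. Bst2, which holds budding virions at the cell surface, had 4.14, 3.53, 3.44, 4.83 and 3.34 CPM in 24mEE against 2.35, 2.79, 2.66, 2.43 and 2.53 CPM in 5mEE (log2 fold change 0.60 ± 0.22, edgeR adjusted p = 0.768). Parp12, an ADP-ribosyltransferase, had 16.0, 16.0, 16.8, 12.6 and 16.8 CPM in 24mEE against 12.1, 12.4, 13.2, 12.1 and 11.4 CPM in 5mEE (0.36 ± 0.12, adjusted p = 0.684). One 24mEE library, replicate 4, fell within the 5mEE range of Parp12.

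In standard cages the picture depended on which libraries entered. The median log2 fold change of the members, 24mSC against 5mSC, was 0.13 with all libraries, 0.34 without 5mSC replicates 1 and 3, and -0.01 without 24mSC replicate 5. No member passed the edgeR test, while 0.467% of all genes were called higher. At unadjusted p under 0.05, 7 members were higher and 2 lower, a share near that of all genes (20.5% in either direction). DESeq2 called 5 members higher, against 2.14% of all genes, and limma-voom 1, against 1.14%. No member had all 24mSC libraries above all 5mSC ones, against 1.68% of all genes. Without 5mSC replicates 1 and 3 there were 3, Ifit2, Oasl2 and Trim30a, against 5.5% of all genes. Ifih1 (log2 fold change 0.51 ± 0.13, adjusted p = 0.0626) and Ifit2 (0.43 ± 0.13, adjusted p = 0.0809) were closest to the threshold together with Ifit3b (0.87 ± 0.24, adjusted p = 0.0722). Leaving out 5mSC replicate 3 brought 3 members past it, Ifih1, Oasl2 and Ifit2, against 1.83% of all genes.

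Ifit2 had 8.46, 11.0, 7.88, 9.21 and 7.1 CPM in 24mEE and 9.63, 11.8, 7.77, 9.39 and 10.4 CPM in 24mSC, against 7.53, 7.02, 8.09, 7.08 and 7.97 CPM in 5mEE and 6.26, 7.56, 8.98, 6.94 and 6.95 CPM in 5mSC. All but one of the 5mSC libraries lay below the 24mSC range, whereas the enriched groups overlapped. Its paralog Ifit1 had a log2 fold change of 0.34 with age over both housings in 20 libraries and 0.06 in 17.

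Of the transcription factors that carry the interferon signal none passed with age. Irf9 had a log2 fold change over both housings of -0.23 ± 0.11 (edgeR adjusted p = 0.335), and -0.15 in the 18 libraries. Stat2 had 26.5, 26.5, 29.3, 28.5 and 28.3 CPM in 24mEE and 29.1, 23.6, 25.4, 27 and 34.0 CPM in 24mSC, against 25.7, 27.4, 27.7, 27.4 and 27.9 CPM in 5mEE and 23.5, 25.7, 48.0, 26 and 29.6 CPM in 5mSC. Apart from 5mSC replicate 3 and 24mSC replicate 5 the 4 groups covered the same range (log2 fold change over both housings -0.04 ± 0.10, edgeR adjusted p = 0.879).

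Irf7, which amplifies interferon production and is itself interferon-induced, varied between single mice. It had 2.7, 1.63, 2.31, 2.39 and 2.52 CPM in 24mEE and 4.18, 2.53, 1.67, 2.27 and 5.51 CPM in 24mSC, against 1.71, 2.52, 3.84, 2.09 and 2.12 CPM in 5mEE and 1.8, 2.5, 3.73, 1.99 and 1.6 CPM in 5mSC. High values occurred in 24mSC replicates 1 and 5, 5mEE replicate 3 and 5mSC replicate 3. The log2 fold change with age over both housings was 0.22 ± 0.21 (edgeR adjusted p = 0.666). Sp100, a nuclear body protein, had 0.21.

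The remaining members did not pass with age over both housings in 20 libraries. In the rest of the OAS family the log2 fold changes were 0.44 for Oas2, 0.23 for Oas1a and -0.07 for Oas1b, whose product is truncated in most laboratory strains. In the Isg15 system they were 0.25 for Isg15, 0.10 for Usp18, which removes Isg15 from proteins, -0.11 for the E3 ligase Trim25 and 0.13 for Dtx3l, the partner of Parp9. Parp9 had -0.03, Parp14 0.03 and Parp12 0.20. The guanylate-binding proteins had 0.54 (Gbp2) and 0.28 (Gbp3), and the membrane and translation effectors 0.39 (Ifitm3), 0.19 (Eif2ak2, the kinase PKR) and 0.18 (Rtp4). Ifi27 had 0.10, Ifi35 -0.24, Ifi44 -0.61 and Lgals9 0.11. The largest negative value, -1.65 for Zbp1, came from 5mSC replicate 3 and was 0.66 in the 18 libraries. Without strand in the counts, reads of Ifi35, Parp9 and Dtx3l cannot be told from those of genes that overlap them on the other strand.

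**Figure D4:**
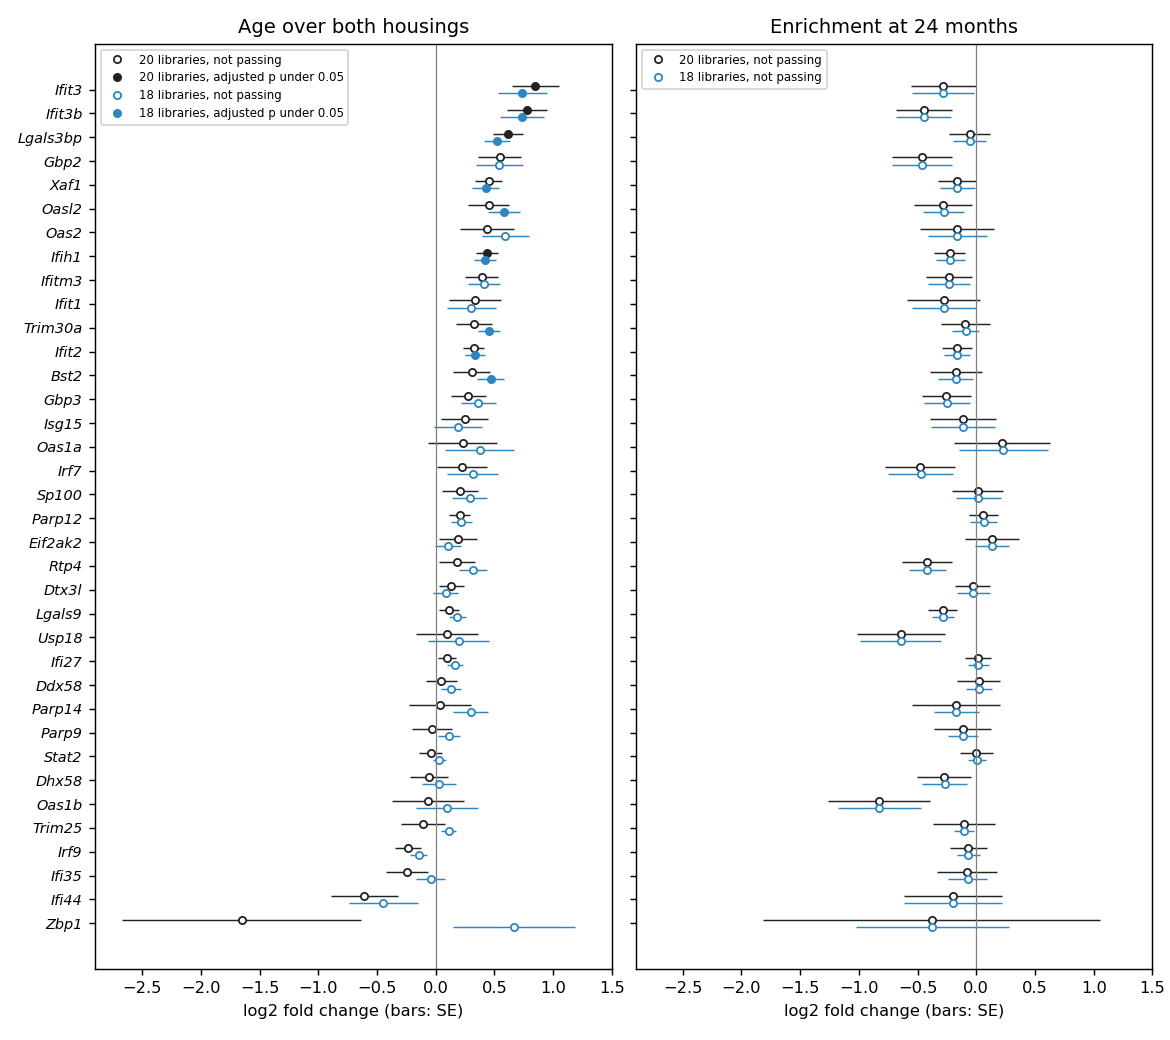
Log2 fold changes (points) with SE (bars) of the 36 members for age over both housings (left) and enrichment at 24 months (right), in the fit of 20 libraries and of 18 libraries. Filled points passed at adjusted p under 0.05: 4 in 20 libraries and 9 in 18 libraries for age, 0 for enrichment, and for age Zbp1 moves most between the fits.

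Enrichment at 24 months left no member past the test. The edgeR fit called 0 members and 0.0% of all genes lower. At unadjusted p under 0.05, 0 members were higher and 1 lower, with 6.21% of all genes past that p in either direction. DESeq2 and limma-voom called 0 members as well, and 0.138% and 1.64% of all genes lower. The median log2 fold change of the members, 24mEE against 24mSC, was -0.17, and 29 of 36 were below 0. This median rested on 1 library: without 24mSC replicate 5 it was 0.00, and in the 17 libraries 18 of 36 members were above 0 and 18 below. In 0 of 36 members did all 24mEE libraries lie below all 24mSC ones, against 1.93% of all genes.

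Lgals9, encoding galectin-9, had the smallest p. It had 7.5, 6.84, 6.98, 6.02 and 6.41 CPM in 24mEE, against 8.46, 7.28, 9.04, 7.56 and 8.82 CPM in 24mSC. The groups overlapped only through 24mEE replicate 1 and 24mSC replicate 2, and the log2 fold change was -0.29 ± 0.12 (edgeR adjusted p = 0.704), and -0.24 to -0.33 without any one library. In young mice it had 6.58, 6.57, 6.2, 5.16 and 5.91 CPM in 5mEE, against 7.49, 6.34, 10.8, 8.03 and 6.76 CPM in 5mSC. Both ages gave lower values in the enriched group, and neither difference passed (5 months -0.36 ± 0.12, adjusted p = 0.225).

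Rtp4, a chaperone-like protein of membrane receptors, had 1.63, 1.89, 1.77, 2.13 and 1.56 CPM in 24mEE against 2.65, 1.91, 1.95, 2.32 and 3.16 CPM in 24mSC. Only 24mEE replicate 4 lay within the 24mSC range (log2 fold change -0.42 ± 0.22, edgeR adjusted p = 0.865). Rtp4 overlaps another gene on the same strand in 13.89% of its exon bases, so some of its reads are uncertain. Oas1b had 0.406, 0.387, 0.408, 0.399 and 0.504 CPM in 24mEE against 0.867, 0.568, 0.448, 0.324 and 1.53 CPM in 24mSC, which is 6 to 32 reads per library over the series. Its log2 fold change was -0.83 ± 0.44 (adjusted p = 0.885) and -0.38 without 24mSC replicate 5. Usp18 had -0.64 with all libraries and -0.04 in the 17 libraries, and Irf7 -0.48 and -0.19.

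The other members had log2 fold changes at 24 months from -0.47 (Gbp2) to 0.22 (Oas1a). Among those described above, Ifih1 had -0.23, Ddx58 0.02, Stat2 0.00, Irf9 -0.07, Ifit3 -0.28, Ifit3b -0.45, Oasl2 -0.28, Isg15 -0.11, Parp12 0.06, Bst2 -0.18, Eif2ak2 0.13 and Lgals3bp -0.06. Of these, Ifit3 was 0.23 in the 17 libraries and Ifit3b -0.14.

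At 5 months the members were mostly lower in the enriched group, and none passed. The median log2 fold change, 5mEE against 5mSC, was -0.28 with all libraries, -0.15 without 5mSC replicate 3 and -0.195 in the 18 libraries. With all libraries 32 of 36 members were below 0 and in the 18 libraries 30 of 36. The edgeR test called 0 members and 0.0% of all genes lower. At unadjusted p under 0.05, 0 members were higher and 9 lower, with 16.5% of all genes past that p in either direction. DESeq2 and limma-voom called 0 members, and 0.12% and 0.0% of all genes lower. Only in Irf9 did all 5mEE libraries lie below all 5mSC ones, 1 of 36 members against 0.875% of all genes.

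Irf9, the DNA-binding partner of Stat2, had 10.7, 11.0, 10.1, 8.44 and 9.86 CPM in 5mEE, against 11.4, 13.4, 23.7, 11.6 and 13.3 CPM in 5mSC. Replicate 3 of 5mSC was highest, and the others also exceeded every 5mEE value. The log2 fold change was -0.52 ± 0.16 (edgeR adjusted p = 0.223), and -0.35 in the 18 libraries (adjusted p = 0.542). At 24 months it had 10.9, 11.6, 9.38, 9.04 and 8.93 CPM in 24mEE and 10.7, 9.56, 9.44, 10 and 12.6 CPM in 24mSC, which overlapped. With age in standard cages its log2 fold change was -0.46 ± 0.16 (adjusted p = 0.122).

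Bst2 had 2.35 to 2.79 CPM in 5mEE, against 3.96, 2.07, 8.11, 4.24 and 3.72 CPM in 5mSC (log2 fold change -0.76 ± 0.23, edgeR adjusted p = 0.223). 5mSC replicate 2 was below all 5mEE libraries, and the value was -0.44 in the 18 libraries. Zbp1 had 0.118, 0.405, 0.379, 0.0426 and 0.0632 CPM in 5mEE against 0.144, 0.244, 31.8, 0.178 and 0.313 CPM in 5mSC. Its log2 fold change of -4.96 ± 1.36 came from replicate 3 alone, and was -0.37 in the 18 libraries.

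The interaction, the enrichment difference at 24 months minus that at 5 months, gave 0 members in edgeR, DESeq2 and limma-voom, and edgeR called 0.0% of all genes lower. At unadjusted p under 0.05, 2 members were higher and 0 lower, with 8.0% of all genes past that p in either direction. The median was 0.08 in the 20 libraries, 0.14 in the 17 libraries and -0.06 without 5mSC replicate 3. The effect of enrichment was thus not shown to differ between the ages.

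Members were raised in single 24mSC mice, many in replicate 5 and fewer in replicate 1. In 24mSC replicate 5, 25 of 36 members had their highest value of the group, against 21.7% of all genes, and 11 of 36 were at least 2 times the median of the other 4 libraries, against 1.22% of all genes. Usp18 had 4.17 CPM there against a median of 1.16 CPM in the other 4, Ifit1 7.19 against 2.41, and Ifit3 13.9 CPM, 3.19 times the median. Of 45 other interferon-stimulated genes tested, 6 were at least 2 times the median, among them Mx2, a paralog of Mx1, at 1.87 CPM against 0.843. The chemokine Cxcl10, too low to be tested in the 20 libraries, had 1.77 CPM against at most 0.432 CPM.

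In 24mSC replicate 1 the raised genes were partly the same and partly others. There 7 of 36 members had their highest value of the group, a share near the 18.5% of all genes. At least 1.5 times the median of the other 4 libraries were 10 of 36 members, against 3.06% of all genes. Among them Zbp1, Irf7, Oas1b, Isg15 and Parp14 reached this ratio in replicate 5 too. Sp100, Oas2, Gbp2 and Gbp3 reached it in replicate 1 and not in replicate 5. Only 2 of 36 members, Zbp1 and Gbp2, were at least 2 times the median of the other 4 libraries, against 0.767% of all genes, while 10 of the 45 other genes were. The guanylate-binding and immunity-related GTPases, which interferon-gamma induces strongly, led them: Gbp4 had 16.8 CPM against a median of 2.64, Ifi47 3.31 against 0.667, Irgm2 9.18 against 3.89 and Gbp5 8.56 against 3.97. Gbp2 had 10.4 CPM against 4.65. In replicate 5 Gbp4 was 2.21 CPM against a median of 3.42, and in replicate 1 Ifit1 was 2.75 CPM against 2.41. The antiviral enzyme Rsad2 was high in both, with 4.46 CPM in replicate 5 and 4.08 CPM in replicate 1. The genes named for single libraries were chosen after their values were seen.

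**Figure D5:**
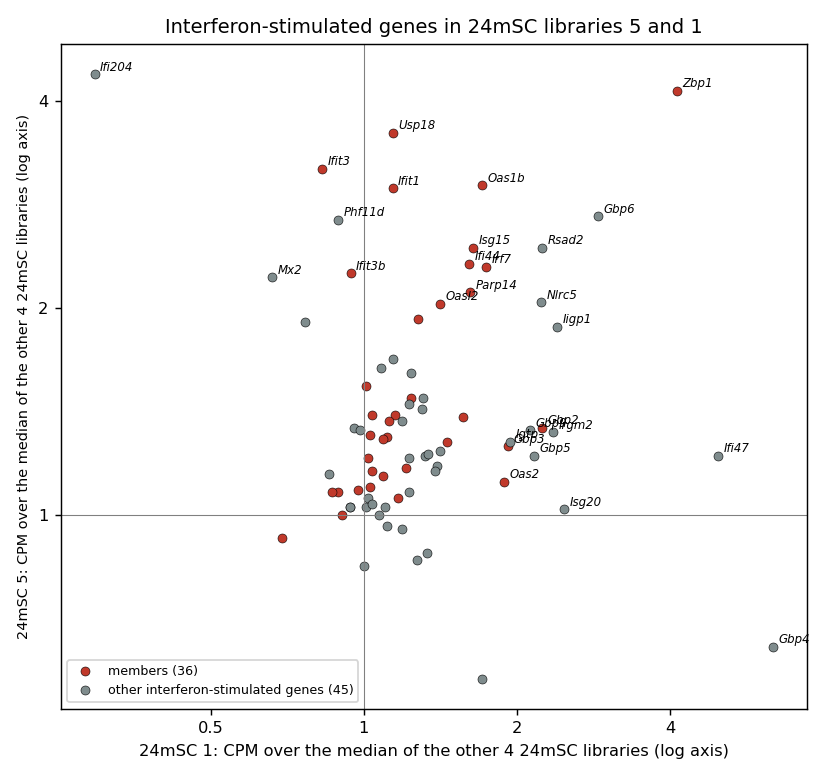
CPM in 24mSC 5 (vertical) and in 24mSC 1 (horizontal), each divided by the median of the other 4 24mSC libraries, on log axes, for the 36 members and 45 other interferon-stimulated genes. Usp18, Ifit3 and Ifit1 are high in library 5 only, Gbp4 and Ifi47 in library 1 only, and Zbp1 in both.

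Cell type markers in these libraries were as follows. In 24mSC replicate 5 the 14 microglial markers summed to 593 CPM, against 593 to 683 CPM in the other 4 libraries, and the 7 blood markers to 30.3 CPM against 30.4 to 233. Its 6 meningeal fibroblast markers summed to 88.1 CPM against at most 65.6. In 24mSC replicate 1 the blood markers summed to 233 CPM against at most 39.7, the 11 endothelial markers to 404 against at most 243, and the 5 pericyte markers to 273 against at most 190. None of 10 lymphocyte markers passed the filter on low counts, and they summed to 0.816 and 1.05 CPM in replicates 1 and 5. In 5mSC replicate 3 the lymphocyte markers summed to 19.2 CPM against at most 0.864 in the other 5mSC libraries, the meningeal fibroblast markers to 150 against at most 59.8, and the choroid plexus markers to 381 against at most 60.2. The part of these cells in the member values was not tested.

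With age, the microglial markers summed to 526 to 646 CPM in 24mEE and 593 to 683 CPM in 24mSC, against 508 to 586 CPM in 5mEE and 362 to 584 CPM in 5mSC. Of the 14 markers 3 rose and 1 fell over both housings, with a median log2 fold change of 0.18, beside 0.205 for the members. Blood markers had a median of 0.26 (7 of 7 above 0, 0 called), endothelial markers 0.01 and astrocyte markers 0.02 (1 of 8 rose). Meningeal fibroblast markers had -0.52 (0 of 6 above 0, 1 fell) and choroid plexus markers -0.73 (0 of 8 above 0, 0 called), and in the 18 libraries these were -0.32 and -0.17. With enrichment at 24 months the hippocampal neuron markers had a median log2 fold change of 0.35 (7 of 8 above 0, 0 called). The microglial markers had -0.08 (2 of 14 above 0, 0 called). The part of these cells in the members' differences was not tested.

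The other genes of the pathway, from lists that name them by role, gave few calls with age. None of 5 receptor genes tested passed in any comparison of the 20 libraries, and the 2 with the smallest p were Ifnar1 (log2 fold change 0.09) and Ifngr1 (0.14). None of the kinases Jak1, Jak2 and Tyk2 passed, and the log2 fold changes were -0.13 for Tyk2 and 0.04 for Jak1. Of 12 genes of nucleic acid sensing none passed in 20 libraries. In the 18 libraries Tlr9, a sensor of DNA, rose (0.40, adjusted p = 0.0366). Irf3, which turns sensing into interferon transcription, had -0.28 (edgeR adjusted p = 0.101) and Tlr3 0.15.

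Of 9 negative regulators tested none passed in 20 libraries. Socs3, an inhibitor of Jak kinases, averaged 1.84 ± 0.475 CPM in 24mEE and 2.8 ± 0.702 in 24mSC, against 1.22 ± 0.126 in 5mEE and 1.82 ± 0.771 in 5mSC, with a log2 fold change of 0.64 (edgeR adjusted p = 0.0798), and it rose by 0.79 in the 18 libraries (adjusted p = 0.00544). Ptpn2 had -0.16, and in the 18 libraries the phosphatase Ptpn6 also rose (0.35, adjusted p = 0.0326). Of the 45 other interferon-stimulated genes tested, 1 rose with age over both housings: Irgm1, a GTPase of autophagy and host defence.

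Irgm1 had 11.2, 11.8, 10.9, 12.2 and 13.6 CPM in 24mEE and 16.2, 11.4, 10.1, 11.8 and 13.7 CPM in 24mSC, against 8.35, 9.18, 11.2, 8.61 and 8.22 CPM in 5mEE and 10.2, 10.4, 9.31, 8.83 and 10.9 CPM in 5mSC. Its log2 fold change was 0.37 ± 0.08 (edgeR adjusted p = 0.0324). The 45 genes had a median of 0.24 with 33 above 0, and in the 18 libraries 7 of 46 rose: Irgm1, Gbp5, Cxcl10, Oas1c, Ifi30, Nlrc5 and Uba7. At 24 months their median with enrichment was -0.12, and 35 of 45 were below 0 (22.2% above 0, against 49.4% of all genes). In the 17 libraries, without 24mSC replicate 5, the median was -0.05 and 28 of 46 were below 0.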

How the data were processed

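Hippocampal RNA of 20 mice was sequenced from unstranded TruSeq v2 libraries (10963348 to 34107138 counted reads each). Reads per gene were counted by the authors and deposited as raw counts for 47729 Ensembl genes, and GENCODE gave a symbol for 47310 of them (99.1%). The submitters' processing notes name bcl2fastq 1.8.2, STAR 2.4.1d, featureCounts 1.4.6-p4 and GRCm38. The published methods name another aligner and counter, and the paper states that it did not use the deposited counts. The deposited RPKM table was not used here.

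The tested counts were those of 16692 genes kept by filterByExpr (least count 10), scaled by TMM. Groups were compared with the edgeR quasi-likelihood test (edgeR 4.0.16, R 4.3.3) on all 20 libraries with Benjamini-Hochberg adjustment over all genes and a threshold of 0.05. SE is the log2 fold change divided by the root of F. The procedure was tested on simulated data. Alternatives were DESeq2 1.42.0, limma-voom 3.58.1 with sample weights, other filters, 18 libraries without 5mSC replicates 1 and 3, only the 2 groups compared and each library left out. Intervals and floors cover counting error only. The paper kept its sequenced mice in more than one run. Whether these 20 libraries span the runs is not in the labels used here, so no batch term was fitted.

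The members, lists and tests were chosen with earlier results of these data known. Values in every library are given for members that passed in any of the 6 comparisons, for the 3 with the smallest p in each comparison other than the interaction, and for Stat2, Irf9 and Irf7. Other members are given by log2 fold change or range, and from each pathway list the genes that passed or the 2 with the smallest p are named. Other genes with values, among them Oasl2 and Trim30a, were chosen after their values were seen. Promoter windows are RefSeq's (GRCm38.p6). One gene of the pathway lists is not reported here.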

Additional observations from a re-analysis of the deposited data

Results flagged for a closer look

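Of 60 groups of 5 libraries examined (each named member and the member level in each group), 13 held a library far from its 4 fellows by Dixon's criterion, where chance flags about 5.0% of groups. In 5mSC replicate 3 these were Zbp1 (31.8 CPM), Stat2 (48.0), Irf9 (23.7), Oas1b (1.86), Rtp4 (4.05) and the member level (2.716 mean log2 CPM). In 24mSC replicate 5 they were Ifit3 (13.9 CPM) and Ifit3b (6.9 CPM). Single libraries of other groups were Oas1b in 24mEE replicate 5 (0.504 CPM), Parp12 in 24mEE replicate 4 (12.6), Stat2 in 5mEE replicate 1 (25.7), Rtp4 in 5mEE replicate 3 (1.9) and Ifit3b in 5mSC replicate 5 (3.1).

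Mx1 entered no comparison because its counts were too low. Its CPM exceeded the highest 5mSC value (0.244) in 24mEE replicates 3 (0.272), 4 (0.354) and 5 (0.275) and in 24mSC replicates 1 (0.255), 3 (0.326), 4 (0.378) and 5 (1.53, from 32 reads). The difference was not tested.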

How the results depend on the processing

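With age over both housings 9 members rose under limma-voom (3.47% of all genes), in the 18 libraries (3.1%) and in the 17 libraries (2.99%). When single libraries were left out 1 to 9 rose, against 0.432% to 3.07% of all genes. With age in standard cages DESeq2 called 5 members higher (2.14% of all genes) and limma-voom 1 (1.14%). Leaving out single libraries gave 0 to 3 higher, against 0.107% to 3.19% of all genes. It gave 0 to 1 lower (Zbp1, without 5mSC replicate 2), against 0.0711% to 3.49% of all genes. With age in the enriched environment limma-voom called 3 higher (0.665% of all genes) and the fit of only the 2 groups 1 (0.237%). The 18 libraries gave 2 (0.413%) and the 17 libraries 2 (0.384%). The member level of 24mEE was 2.055 without Ifit3, Ifit3b and Oas1a, which share reads with relatives. No value called in the fit of 20 libraries changed sign. Among values that were not called, the interaction median was -0.06 without 5mSC replicate 3 (0.08 with it), Zbp1 with age over both housings was 0.66 in the 18 libraries (-1.65 in 20) and Ifit3 with enrichment at 24 months was 0.23 in the 17 libraries (-0.28 in 20). Apart from those given, the counts of calls stayed within 1.5 times. Ifit3 with age over both housings had an adjusted p of 0.0543 in edgeR with no filter, where more genes were tested. Another scaling (DESeq2 size factors) moved the median of all genes by at most 0.005 on the log2 scale. No paired analysis was possible because the replicate numbers only follow the order of the samples. Depth limits Zbp1, Oas1a, Oas1b and Mx1, each with 6 or fewer reads in at least 1 library. The cause of these dependences was not tested.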
